A study of Mus musculus with 4 samples.

Results

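The 9 genes that write, copy, erase or read DNA methylation, Dnmt1, Uhrf1, Dnmt3a, Dnmt3b, Tet1, Tet2, Tet3, Mbd1 and Mbd2, were taken by name, with earlier results of these data known. All 9 were among the 23875 genes in the table. RNA-seq data came from 2 libraries of ID8-PW2 cells and 2 libraries of ID8-P0 cells. ID8 is a mouse ovarian cancer line that arose when ovarian surface epithelial cells of C57BL/6 mice transformed in culture. ID8-PW2 is the line recovered from peritoneal wall tumors after 2 passages in C57BL/6 mice, and ID8-P0 is the line with no passage in mice, which carries GFP and luciferase and from which the passaged line came. Both are labelled wild type, and both were held in suspension on plates that prevent attachment for 24 h before RNA was taken. Each duplicate is a culture of its line, so variation between separately passaged tumors was not measured. The ID8-PW2 libraries ran on lanes 4 and 8 and both ID8-P0 libraries ran on lane 3, so that lane and line cannot be told apart.

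DNA methylation in mammals sits mostly on cytosines followed by guanine (CpG). Dnmt1 copies the mark onto the new strand after replication, and Uhrf1 recognises hemimethylated DNA at the fork and brings Dnmt1 to it. Dnmt3a and Dnmt3b place methylation on sites that had none. Tet1, Tet2 and Tet3 oxidise methylcytosine to hydroxymethylcytosine and further forms, which are lost at replication or cut out by base excision repair. Mbd1 and Mbd2 bind methylated CpG and recruit repressors. Mutation of Tet2 or Dnmt3a is best known from blood cancers, and promoter methylation of tumor suppressor genes is well known in ovarian carcinoma.

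Values come from a table in which the authors compared the lines. It lists each gene's fold change (FC, ID8-PW2 over ID8-P0), a p-value and an adjusted p (edgeR, Benjamini-Hochberg over all genes), the mean level over the 4 libraries in CPM (reads of the gene relative to all reads of the library) and a dispersion. A gene was called up-regulated at an adjusted p under 0.01 with FC over 1.2, and down-regulated at the same adjusted p with FC under 0.83. Columns of counts per sample carry names that no label uses and were not used, so that no value per library, library total or standard deviation is given. The level in each line was estimated from the mean level and FC. An approximate standard error (SE) and 95% interval were worked back from FC and its p-value. The square root of the dispersion is the biological coefficient of variation (BCV). It is a model estimate of the relative spread between libraries of 1 line and leaves out the noise of counting, so rare genes vary more than it shows. Since these are bulk samples, fewer cells of a type and less RNA per cell cannot be told apart.

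The table placed 12214 genes at 1 CPM or above, called expressed genes here, with a median log2 FC of 0.01 and a median BCV of 9.77%. The most abundant gene, Gm26924, took 30% of the mean CPM at an FC of 0.624. All 12 markers of ovarian surface and mesothelial-type epithelium were expressed, with a summed estimated level of 2660 CPM in ID8-PW2 against 2420 CPM in ID8-P0. Of 8 listed leukocyte markers 2 were expressed, Cd68 and Csf1r, and the summed level was 27.5 CPM in ID8-PW2 against 6.2 CPM in ID8-P0, while the pan-leukocyte marker Ptprc averaged 0.224 CPM. Of 4 endothelial markers only Pecam1 was expressed, and the sum was 9.93 CPM in ID8-PW2 against 0.972 CPM in ID8-P0, with Cdh5 at 0.183 CPM. Of 4 fibroblast markers 3 were expressed, with sums of 371 CPM in ID8-PW2 against 288 CPM in ID8-P0. The lowest level in the table was 0.163 CPM, where the erythroid marker Alas2 stood. The part of other cell types in the results was not tested.

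Uhrf1, Tet1, Tet2 and Mbd2 were up-regulated in ID8-PW2 cells, at FC of 2.02, 5.70, 2.02 and 1.29. Dnmt1, Dnmt3a, Dnmt3b, Tet3 and Mbd1 were not called, and no member was down-regulated. The called genes thus include the partner that guides the maintenance enzyme, a pair of erasers and a reader, and none of the 3 methyltransferases. That is 4 of 9 genes, or 44.4%, against 7.97% of all genes and 14.4% of expressed genes called up-regulated. The shares called down-regulated were 6.14% of all genes and 11.7% of expressed genes. At an unadjusted p under 0.05, 6 members were higher in ID8-PW2 and 0 were lower, against 14.4% of all genes higher and 11.7% lower at that p. The median FC of the 9 genes was 1.23, and the median log2 FC was 0.30 against 0.00 over all genes.

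**Figure D1:**
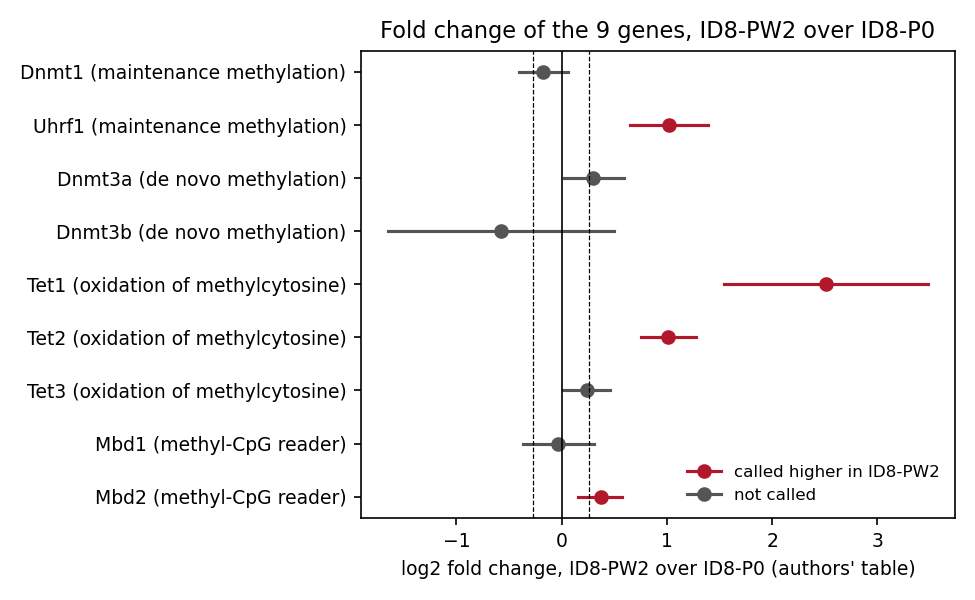
Log2 FC (ID8-PW2 over ID8-P0) for each of the 9 genes, with the role of each in brackets. Points are the fold changes in the authors' table, bars the approximate 95% intervals, and dashed lines the FC limits of 1.2 and 0.83. Tet1 lies furthest to the right with a wide bar, Uhrf1 and Tet2 lie near a log2 FC of 1.02 and 1.01, and the bars of Dnmt1, Dnmt3b and Mbd1 cross 0.

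Of the maintenance pair, Uhrf1 (ENSMUSG00000001228, chromosome 17, 56303321 to 56323486, plus strand) rose and Dnmt1 (ENSMUSG00000004099, chromosome 9, 20907206 to 20959888, minus strand) was not called. The estimated level of Uhrf1 was 20.0 CPM in ID8-PW2 against 9.88 CPM in ID8-P0. Its log2 FC was 1.02 (SE 0.19), with a 95% interval of FC of 1.57 to 2.61, an adjusted p of 1.31e-06 (edgeR, Benjamini-Hochberg) and a BCV of 10.1%. The estimated level of Dnmt1 was 39.1 CPM in ID8-PW2 against 44.3 CPM in ID8-P0. Its FC was 0.884, with a 95% interval of 0.75 to 1.04 and an adjusted p of 0.417 (edgeR). The interval of Dnmt1 ends below the start of that of Uhrf1, and the difference between them was not tested. Per kb of exon, Dnmt1 stood at 1.13 times the level of Uhrf1 in ID8-PW2 and at 2.59 times in ID8-P0.

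Both maintenance genes carry the letters of an E2F-type site close to a RefSeq start, and the sites are shown with their place in the annotation. E2F factors drive genes of DNA synthesis, and the letters searched were TTTCGCGC and TTTGGCGC, on either strand, in the 250 bases before each start. The 2 words differ at a single base, so they cannot match at the same place on a strand. In the sequences, from RefSeq on GRCm38.p6 and read along the gene's own strand, capitals mark the match. The Dnmt1 site, chr9:20952824-20952853 on the minus strand, holds the word on the opposite strand, 219 bases before its start and within an exon of another Dnmt1 transcript. The Uhrf1 site, chr17:56304117-56304146 on the plus strand, holds it 185 bases before its start and in no annotated exon.
Dnmt1 site: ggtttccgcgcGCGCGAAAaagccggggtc
Uhrf1 site: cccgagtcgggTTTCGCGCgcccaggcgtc
A match is in 0.654% of all 32851 windows and in the windows of 0.759% of 27025 genes. Windows of 7 members were used, 12 windows in all, and these were the only 2 with a match. Mbd1 and Mbd2 were left out of the search. A match describes letters and does not show that a factor binds.

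The de novo enzymes were not called. Dnmt3a (ENSMUSG00000020661, chromosome 12, 3806007 to 3914443, plus strand) had an estimated level of 41.6 CPM in ID8-PW2 against 33.7 CPM in ID8-P0. Its FC was 1.23, with a 95% interval of 1.01 to 1.5, an unadjusted p of 0.0388 and an adjusted p of 0.157 (edgeR). Dnmt3b (ENSMUSG00000027478, chromosome 2, 153649450 to 153687730, plus strand) was the least abundant of the 9 by mean CPM, at 0.995 CPM in ID8-PW2 against 1.48 CPM in ID8-P0. Its FC was 0.671 with a 95% interval of 0.318 to 1.42, an adjusted p of 0.705 (edgeR) and a BCV of 23.3%, the highest of the members. A change of the size seen for Uhrf1 in the other direction lies inside the interval, so these values do not exclude such a fall in Dnmt3b. Per kb, Dnmt3a stood 12.8 times above Dnmt3b in ID8-PW2 and 6.98 times in ID8-P0, and the 2 ratios carry the wide error of Dnmt3b.

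Tet1 and Tet2 were up-regulated, while Tet3 missed the threshold. Tet1 (ENSMUSG00000047146, chromosome 10, 62804570 to 62899118, minus strand) had the highest FC of the members, 5.70, with a 95% interval of 2.9 to 11.2 and an adjusted p of 6.74e-06 (edgeR). It was also rare, at an estimated 3.26 CPM in ID8-PW2 against 0.572 CPM in ID8-P0, with a BCV of 18.2%. The ID8-P0 level is not far above the lowest level of the table, so this FC depends in part on the small count that edgeR adds. Tet2 (ENSMUSG00000040943, chromosome 3, 133463679 to 133544390, minus strand) had 40.6 CPM in ID8-PW2 against 20.1 CPM in ID8-P0. Its log2 FC was 1.01 (SE 0.13), with a 95% interval of FC of 1.68 to 2.42 and an adjusted p of 1.86e-12 (edgeR), the lowest of the 9. Tet3 (ENSMUSG00000034832, chromosome 6, 83362373 to 83441678, minus strand), the most abundant of the family, had 76.3 CPM in ID8-PW2 against 64.8 CPM in ID8-P0. Its FC was 1.18, below the FC limit, with a 95% interval of 1.01 to 1.38 and an adjusted p of 0.155 (edgeR). The interval of Tet3 ends below that of Tet2, and that of Tet2 ends below that of Tet1, though no difference between them was tested.

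The make-up of the Tet family differed between the lines by these estimates. Per kb of exon, the 3 Tet genes summed to 7.19 CPM per kb in ID8-PW2 and 5.11 CPM per kb in ID8-P0. Tet1 made up 2.93% of that sum in ID8-PW2 and 0.725% in ID8-P0, so the gene with the highest FC gave little of the family's RNA in either line. Tet2 made up 33.5% in ID8-PW2 and 23.3% in ID8-P0, and Tet3 63.6% in ID8-PW2 and 76.0% in ID8-P0. The sum of Dnmt1, Dnmt3a and Dnmt3b was 8.0 CPM per kb in ID8-PW2 and 8.32 CPM per kb in ID8-P0. The sum over the Tet genes was thus 0.899 of the sum over the DNA methyltransferases in ID8-PW2 and 0.614 in ID8-P0. With the longest transcript as the length the ratios were 1.04 in ID8-PW2 and 0.719 in ID8-P0, so which sum is larger in ID8-PW2 depends on the length used. These sums carry no replicate error and were not tested.

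**Figure D2:**
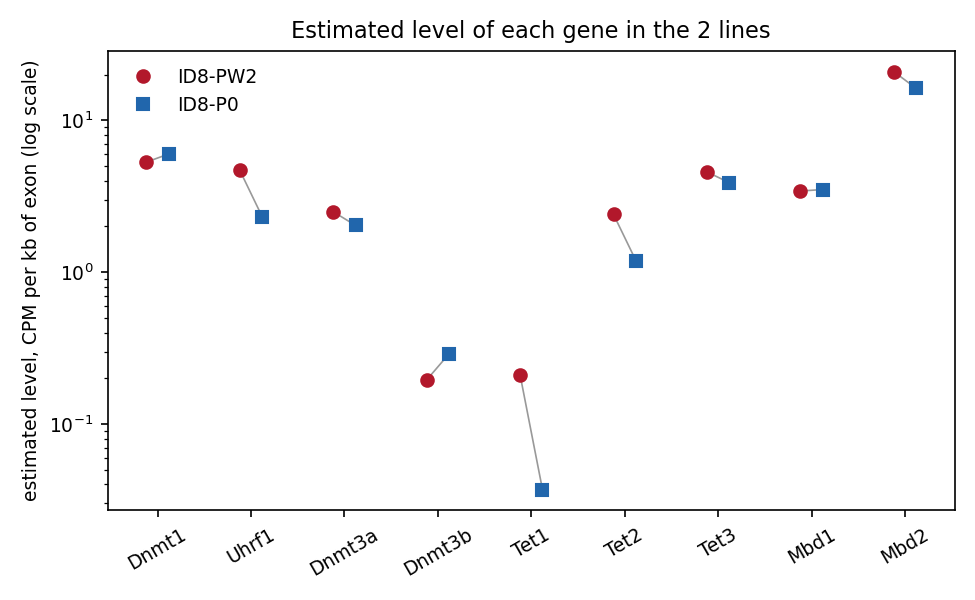
Estimated level of each gene in CPM per kb of exon, on a log scale, in ID8-PW2 (circles) and ID8-P0 (squares), with lines joining the 2 lines' values. Mbd2 stands highest in both, at 20.9 in ID8-PW2 and 16.2 in ID8-P0, and Tet1 and Dnmt3b stand lowest.

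The start of Tet2 is the most CpG-dense of the 12 windows used, which leave out Mbd1 and Mbd2. It is shown beside that of Uhrf1, which had the same FC of 2.02. In the 250 bases before its start, Tet2 holds 51 CpGs, and 99.9% of all windows hold fewer. Of the windows of Uhrf1, the one with the E2F-type letters holds 30 CpGs, and 94.1% of windows hold fewer, while the other holds 10, and 62.2% hold fewer. The only window of Tet1, the gene with the highest FC, holds 15 CpGs, more than 72.7% of windows, while the median window holds 6. This Tet1 window, chr10:62887325-62887574 on the minus strand, lies within the listed span of the gene, 62804570 to 62899118. It therefore precedes a start inside the gene and not the listed 5' end. The uncalled Dnmt3a holds 38 and 40 CpGs in its first 2 windows, so a dense start was not particular to the called genes. The windows are chr3:133544391-133544640 (minus strand) for Tet2 and chr17:56304063-56304312 (plus strand) for Uhrf1, both on GRCm38.p6, with the E2F-type letters in capitals.
Tet2 window: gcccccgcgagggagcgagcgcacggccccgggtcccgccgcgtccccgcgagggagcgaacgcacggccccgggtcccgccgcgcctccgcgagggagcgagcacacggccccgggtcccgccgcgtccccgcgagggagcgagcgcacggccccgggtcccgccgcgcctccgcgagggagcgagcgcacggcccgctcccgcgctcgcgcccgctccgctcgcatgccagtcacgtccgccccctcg
Uhrf1 window: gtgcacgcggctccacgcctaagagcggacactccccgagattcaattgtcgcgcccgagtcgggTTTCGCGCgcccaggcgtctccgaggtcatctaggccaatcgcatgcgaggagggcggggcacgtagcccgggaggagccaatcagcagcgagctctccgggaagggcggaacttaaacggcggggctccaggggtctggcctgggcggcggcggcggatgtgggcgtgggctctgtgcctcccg
No methylation was measured in these cells, so the windows say nothing of whether these CpGs were methylated.

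Of the readers, Mbd2 (ENSMUSG00000024513, chromosome 18, 70568189 to 70626131, plus strand) was up-regulated by a small margin and Mbd1 (ENSMUSG00000024561, chromosome 18, 74268272 to 74282685, plus strand) was not called. Mbd2 had 67.2 CPM in ID8-PW2 against 52.1 CPM in ID8-P0. Its FC was 1.29, with a 95% interval of 1.12 to 1.49 and an adjusted p of 0.00425 (edgeR). Its BCV of 6.24% was the lowest of the 9, and at this FC the call would be lost under a limit of 2. Mbd1 had 22.9 CPM in ID8-PW2 against 23.5 CPM in ID8-P0. Its FC was 0.977, with a 95% interval of 0.773 to 1.24 and an adjusted p of 1 (edgeR), and it moved to 1.06 when FC was set against the median of 12 reference genes. Per kb, Mbd2 stood at 6.11 times Mbd1 in ID8-PW2 and 4.63 times in ID8-P0. Per kb it was also above each other member in both lines.

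**Figure D3:**
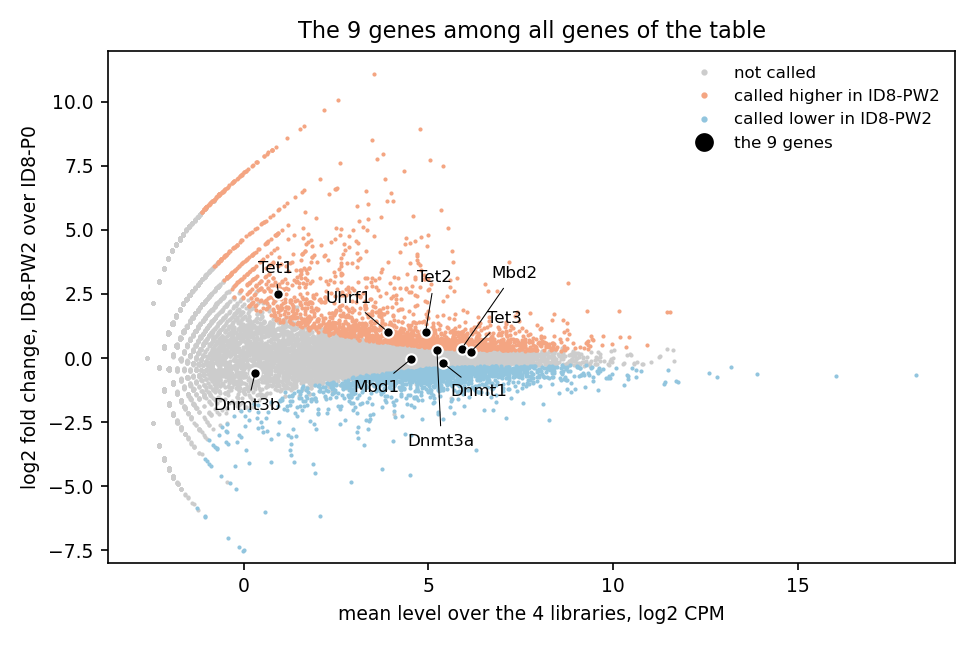
Mean level over the 4 libraries (log2 CPM) against log2 FC (ID8-PW2 over ID8-P0) for all genes of the table. Orange points were called up-regulated in ID8-PW2, blue points were called down-regulated and grey points were not called; the 9 genes are black and named. Tet1 and Dnmt3b sit at low level, where uncalled genes spread widely.

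By mean CPM, Dnmt3b stood above 2.41% and Tet1 above 7.29% of expressed genes, while Tet3 stood above 84.0% and Mbd2 above 80.5%. The remaining members lay between 44.8% for Uhrf1 and 72.4% for Dnmt1. Ranked by p-value over all genes, Tet2 was at 595, Uhrf1 at 1315, Tet1 at 1478 and Mbd2 at 2990.

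The genes around each member are given for place only, since a median of many genes lies nearer 0 than most single genes. Whether a member moved apart from its region was not tested. Neighbours of the other genes named in this report were not examined. Among expressed genes within 2 Mb on either side, the median log2 FC was -0.24 for 31 genes around Tet1, 0.09 for 41 genes around Uhrf1 and 0.23 for 16 genes around Tet2. Around Tet1, 2 neighbours were up-regulated and 9 down-regulated. Around Mbd2, where the median log2 FC of 6 neighbours was 0.26 against 0.37 for Mbd2 itself, 0 were up-regulated and 2 down-regulated. Tet3 (log2 FC 0.24) lay close to the median of 0.22 of its 33 neighbours, and on chromosome 6 as a whole 123 of 583 expressed genes were up-regulated and 37 down-regulated. Dnmt3b lay on chromosome 2, where 76 of 975 were up-regulated and 188 down-regulated. Antisense genes overlap Dnmt3a, Dnmt3b, Tet2 and Tet3 in the annotation, among them Dnmt3aos and Dnmt3bos. They are not listed in the table. The libraries were stranded and were aligned as such, but whether the counting step used the strand is not given in the sources used here.

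Genes that work with the members moved in both directions. Counts called in each list, here and further on, stand beside 14.4% of expressed genes called up-regulated and 11.7% called down-regulated. Of 10 partners of methylation at replication, 1 was up-regulated and 0 were down-regulated. This was Uhrf2, the paralogue of Uhrf1, at 90.4 CPM in ID8-PW2 against 70.3 CPM in ID8-P0 (FC 1.29, adjusted p 0.00319, edgeR). Usp7, a deubiquitinase that stabilises Dnmt1, had an FC of 1.09, and Pcna, the clamp at the replication fork that Dnmt1 binds, an FC of 1, neither of them called. The median log2 FC was 0.29 for the 9 expressed partners, against 0.01 for all expressed genes.

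Of 14 genes of the methyl donor S-adenosylmethionine and of the folate cycle, 1 was up-regulated and 1 down-regulated, with a median log2 FC of 0.10. Mtrr, which reactivates methionine synthase, had an FC of 1.83 (adjusted p 0.00595), and Mthfd1, which interconverts folate forms, an FC of 0.598 (adjusted p 0.00487, edgeR). Of 12 genes of Tet cofactor supply and Tet partners, 2 were up-regulated and 1 down-regulated, with a median log2 FC of 0.05. Cxxc4, which binds unmethylated CpG and is known to lower Tet2 protein, rose with Tet2, at 22.7 CPM in ID8-PW2 against 9.06 CPM in ID8-P0 (FC 2.51, adjusted p 2.74e-11, edgeR). D2hgdh, which clears hydroxyglutarate, an inhibitor of Tet enzymes, rose at an FC of 1.69 (adjusted p 1.13e-05). Idh3a, a subunit of an enzyme that makes the Tet cosubstrate ketoglutarate, fell at an FC of 0.669 (adjusted p 0.00928).

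The base excision arm removes oxidised or deaminated methylcytosine, and its list of 18 genes also holds Gadd45 proteins and cytidine deaminases. Of the 18 genes, 5 were up-regulated and 0 down-regulated, against 7.97% of all genes and 14.4% of expressed genes called up-regulated. The median log2 FC was 0.50 over 15 expressed genes, of which 10 had an FC over 1. Polb, the polymerase that fills the excised gap, had an FC of 0.577 (adjusted p 0.0138, edgeR) and was called down-regulated at an adjusted p under 0.05, and also at 0.01 when p-values were adjusted over expressed genes alone. Gadd45a, a stress-induced protein linked to active demethylation, stood at 82.7 CPM in ID8-PW2 against 39.4 CPM in ID8-P0 (FC 2.10, adjusted p 9.15e-21, edgeR). Apobec3, a cytidine deaminase, had an FC of 2.04 (adjusted p 2.05e-14), and Parp1, a sensor of DNA breaks, an FC of 1.56 (adjusted p 4.36e-11). Neil2, a glycosylase, had an FC of 6.75 (adjusted p 0.000139, edgeR) at a mean of 2.22 CPM and a BCV of 30.3%. Its estimated ID8-P0 level was 0.573 CPM, not far above the lowest level, so the limit given for the FC of Tet1 holds here too. Gadd45a and Parp1 also act in DNA damage responses outside demethylation. Tdg, the glycosylase that excises the products of Tet enzymes, and Polb were outside the naming rule and were chosen after their values were seen. The FC of Tdg was 0.748 (adjusted p 0.614). Apex1, Xrcc1, Lig3 and Smug1, which also act in base excision repair, had FC of 0.906, 0.799, 0.938 and 1.02. The remaining expressed genes that were not called, Neil3, Gadd45g, Mbd4 and Neil1, had FC of 1.92, 1.72, 1.42 and 1.31. None of these was called, and they too were chosen after their values were seen.

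Of 12 other readers of methyl-CpG and their relatives, not all of which bind methyl-CpG, 1 was up-regulated and 2 were down-regulated, with a median log2 FC of 0.08. Zbtb38 rose at an FC of 1.69 (adjusted p 2.79e-08). Zbtb33, also called Kaiso, fell at 0.701 (adjusted p 0.00042), and Baz2b, a relative of the nucleolar silencing protein Baz2a, fell at 0.648 (adjusted p 4.68e-07, edgeR). Of 12 subunits of NuRD, the deacetylase and remodelling complex that Mbd2 recruits, 3 were up-regulated and 1 was down-regulated, with a median log2 FC of 0.03. Mta3 had an FC of 1.70 (adjusted p 1.61e-05), Chd3 of 1.47 (adjusted p 0.000208), Rbbp7 of 1.34 (adjusted p 0.0015) and Gatad2a of 0.767 (adjusted p 0.00426). Of 12 partners of Mbd1 in heterochromatin and repression, 2 were up-regulated and 1 was down-regulated, with a median log2 FC of 0.13. The heterochromatin proteins Cbx3 and Cbx5 had FC of 1.55 (adjusted p 5.62e-05) and 1.30 (adjusted p 0.000378), and the histone methyltransferase Ehmt1 had 0.702 (adjusted p 7.6e-05, edgeR). Of 6 listed CXXC proteins, which bind CpG free of methylation, 0 were called by edgeR. At an unadjusted p under 0.05 1 of them was higher and 0 were lower, against 14.4% and 11.7% of all genes. The most abundant, Kdm2a, had an FC of 1.15 and Kmt2a 0.947.

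**Figure D4:**
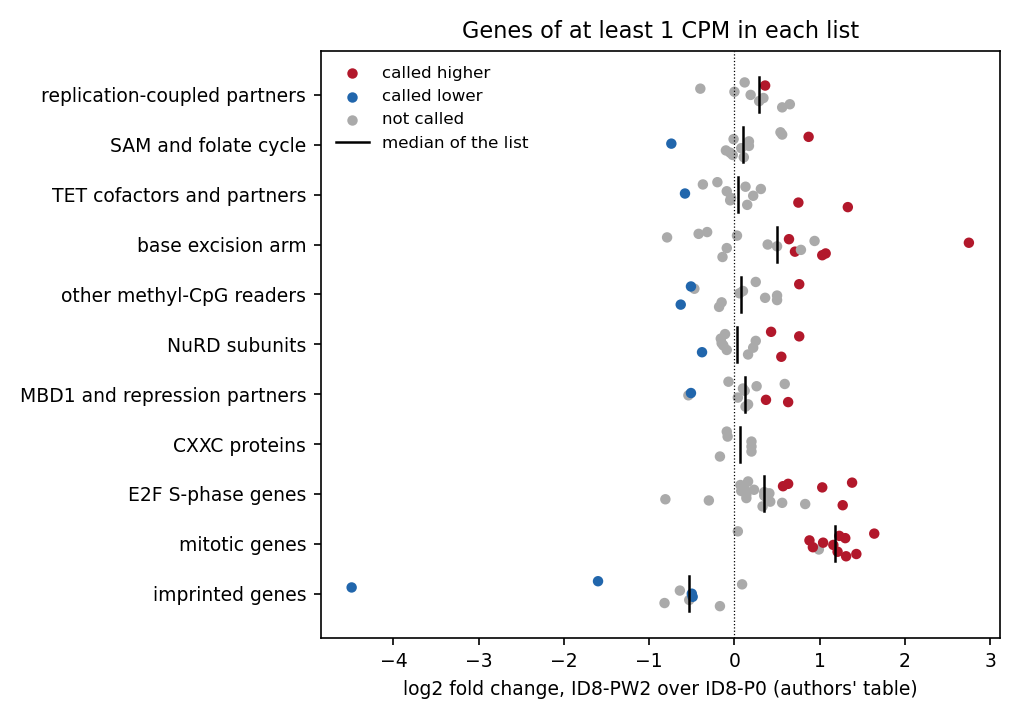
Log2 FC (ID8-PW2 over ID8-P0) for the expressed genes of each list, with the median of a list as a vertical bar. Red genes were called up-regulated, blue genes down-regulated and grey genes not called. The medians of most lists lie near 0, and that of the mitotic genes lies at 1.19.

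Uhrf1 is most abundant in dividing cells. Most listed mitotic genes rose with it, while most listed genes of S phase were not called. Of 12 mitotic genes 10 were up-regulated and 0 down-regulated, with a median log2 FC of 1.19. Mki67, the standard marker of dividing cells, stood at 109 CPM in ID8-PW2 against 46.4 CPM in ID8-P0 (FC 2.34, adjusted p 4.11e-20, edgeR). Of 23 E2F-driven genes of S phase 5 were up-regulated and 0 down-regulated, against 14.4% and 11.7% of expressed genes. Their median log2 FC was 0.35, and 20 of 22 expressed ones had an FC over 1. Rrm1, a subunit of ribonucleotide reductase, had an FC of 1.49 (adjusted p 4e-07), and Tk1, thymidine kinase, an FC of 2.61 (adjusted p 5.69e-05, edgeR). Among the uncalled genes of S phase, Mcm7 had an FC of 1.09, Rrm2 of 1.05, E2f1 of 0.81 and E2f2 of 0.57. The mitotic genes Top2a, at an FC of 1.03, and Bub1, at 1.99 (adjusted p 0.0223), were not called. The part of dividing cells in the change of Uhrf1 was not tested. Of the 12 reference genes 2 were up-regulated and 1 was down-regulated, and their median log2 FC was -0.11.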

How the data were processed

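By the submitters' processing notes and the study's methods, base calling used CASAVA 1.8.2, trimming Trimmomatic 0.22 and alignment TopHat2 2.0.6 on Bowtie2 2.0.2, with reads of many matching places kept. Reads were summed per gene by scripts of the authors and the lines compared in edgeR 3.20.8. A human build is named in those notes, although every identifier is of mouse. Which edgeR test and which filter were used is not given in the sources used here. In the table as deposited by the authors, FC is the ratio between lines with ID8-PW2 on top, log2 FC its log2, the level a mean log2 CPM over the 4 libraries, the p-value and adjusted p those of edgeR, and the dispersion a score per gene. These are results of the authors' own comparison, and no model was fitted again. The 4 columns of counts per sample matched no label and were not used, so depth per library is unknown here.

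Calls, levels per line, BCV, approximate SE (log2 FC divided by the normal quantile of its two-sided p) and lists were computed with Python 3.11.15, numpy 2.4.6, pandas 2.3.3 and scipy 1.17.1, and figures with matplotlib 3.10.9. The call and the SE were tested on simulated data. Exon lengths came from GENCODE release M21, in which 23382 of the listed identifiers were found, and sequences from RefSeq (GRCm38.p6). Gene coordinates are those of the table, whose build the table does not name. The 9 genes and all lists were chosen with earlier results of these data known. The genes named besides the members are up to 4 called genes of each list with the smallest p. Where fewer than 2 were called, abundant uncalled ones were named. Genes added after their values were seen are Tdg, Polb, Apex1, Xrcc1, Lig3, Smug1, Top2a, Bub1, E2f1, E2f2, Mcm7, Rrm2, Mbd5 and Mbd6. Neil1, Neil3, Mbd4 and Gadd45g were added in the same way. The fit planned on counts could not be made. Alternatives were other thresholds, filters on level, centring and transcript lengths.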

Additional observations from a re-analysis of the deposited data

How the results depend on the processing

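Calls and directions of the 9 genes were tried under 6 alternatives each, and 52 of 54 values kept their direction and their side of the threshold. The exceptions were Mbd2, whose FC of 1.29 missed a limit of 2, and Mbd1, whose FC turned to 1.06 when FC was divided by the median of the reference genes (0.924), an alternative chosen after seeing the data. Much of this count was fixed by the settings. Only centring, the division of FC by a median, altered FC, so no other alternative could change a direction. Centring left each adjusted p as it was, so it could not make an uncalled member called. The count is therefore not a measure of how robust the calls are. With FC over 2 or under 0.5, 1069 genes were up-regulated and 408 down-regulated, against 1902 and 1466 at the main limits. With the longest transcript in place of all exons, Dnmt3a over Dnmt3b was 18.7 in ID8-PW2 and 10.1 in ID8-P0, and Tet2 over Tet3 was 0.631 in ID8-PW2 and 0.369 in ID8-P0. The Tet sum over the Dnmt sum was 1.04 in ID8-PW2 and 0.719 in ID8-P0, Tet1 made up 1.95% of the Tet sum in ID8-PW2 and 0.487% in ID8-P0, and Tet2 made up 37.9% in ID8-PW2 and 26.8% in ID8-P0. Only the length differs in these values. Adjusted over expressed genes alone, Tet3 had an adjusted p of 0.0881 and Dnmt3a of 0.089 (edgeR p-values), neither called. Among the lists, 1 gene of the base excision arm (Polb) became down-regulated at an adjusted p under 0.05 and after that adjustment, against 0. Other readers and their relatives up-regulated were 3 at an adjusted p under 0.05, against 1, the added genes being Mbd5 and Mbd6. Germline genes up-regulated were 1 among expressed genes, against 2.

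No paired analysis was possible because the columns used carry no duplicate number. DESeq2, other size factors, library totals, scaling without the most abundant gene, no filter, the likelihood ratio test and leaving out a library need counts per library and were not run. How far a single library decides a value was therefore not tested.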

Other observations

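Imprinted genes, which are expressed from 1 parental allele under the control of methylated regions, were lower or uncalled in ID8-PW2. Of 22 listed genes 9 were expressed, 0 were up-regulated and 4 were down-regulated, and the median log2 FC of the expressed ones was -0.53 against 0.01 for all expressed genes. At an unadjusted p under 0.05, 0 of the 22 were higher and 7 were lower, against 14.4% and 11.7% of all genes. Peg3, a zinc finger gene, had an estimated 0.322 CPM in ID8-PW2 against 7.25 CPM in ID8-P0 (adjusted p 9.53e-22, edgeR). Its ID8-PW2 level lies close to the lowest level of the table, so its FC of 0.0444 depends on the small count that edgeR adds and is no bound. Zrsr1, a splicing factor gene, had 27.7 CPM in ID8-PW2 against 84.0 CPM in ID8-P0 (FC 0.330, adjusted p 1.09e-42, edgeR). Zrsr1 lies on chromosome 11, as does Grb10, an uncalled gene among those lower at an unadjusted p under 0.05. The genes around them were not examined, and whether Zrsr1 or Grb10 moved apart from its region was not tested. Igf2r, the receptor that clears Igf2, had an FC of 0.711 and Impact an FC of 0.708, both called (adjusted p 1.2e-06 and 1.98e-05). Whether these alleles changed in methylation was not measured.

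Of 20 germline genes that promoter methylation usually keeps silent in somatic cells, 3 were expressed, and 17 averaged under 1 CPM. Piwil2, which acts with small RNAs against transposons in germ cells, stood at 40.5 CPM in ID8-PW2 against 0.259 CPM in ID8-P0, close to the lowest level of 0.163 CPM (adjusted p 2.64e-114, edgeR). The same limit holds for its fold change. Tdrd1, a partner of Piwi proteins, was also called up-regulated (adjusted p 0.00224) at a mean of 0.651 CPM. Taf7l, a transcription factor of germ cells, was down-regulated, at 1.68 CPM in ID8-PW2 against 4.9 CPM in ID8-P0 (FC 0.342, adjusted p 0.000347). The list as a whole was thus mostly at low level in both lines. Of its 20 genes 2 were up-regulated and 1 was down-regulated, against 7.97% and 6.14% of all genes, which is near those shares.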
